A study of Rattus norvegicus with 35 samples.

Results

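Cyclin-dependent kinase (CDK) inhibitors and G1 cyclins were followed in the olfactory epithelium of Brown Norway rats at 3 ages. The set held 10 genes, the inhibitors Cdkn1a, Cdkn1b, Cdkn1c, Cdkn2a, Cdkn2b and Cdkn2c and the cyclins Ccnd1, Ccnd2, Ccnd3 and Ccne1. They were found by the gene name of a probe or by the symbol its description gives in brackets, which yielded 17 of the 41012 probes, or 10 of the 35561 distinct gene names, on the array. A further 9 probes whose description names CDKN1A only as the binding partner of a p21-activated kinase belong to other genes and were left out. The arrays came from 19 newborn pups of 3 to 5 days in litters L1 to L4, with 4 pups in L1 and 5 in each other litter, whose sex is not known, from 4 adult males of 9 weeks and from 4 old males of 22 months. The pups were bought with their mothers, and the old rats had lived in the animal house since youth, so that origin, housing and sex may differ along with age. Each pup gave 1 array from 1 side of the nose, and each adult or old rat gave 2, one per nostril, which were averaged, for 35 arrays and 27 rats in all. No genotype or treatment distinguished the groups.

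Division of a cell is decided late in G1. D-type cyclins bind CDK4 and CDK6 and start to phosphorylate the retinoblastoma protein, cyclin E bound to CDK2 completes this step, and E2F factors then switch on the genes of DNA replication. Inhibitors of the Ink4 family (Cdkn2a, Cdkn2b, Cdkn2c) block CDK4 and CDK6, and inhibitors of the Cip/Kip family (Cdkn1a, Cdkn1b, Cdkn1c) act mainly on CDK2 complexes. The olfactory epithelium is one of the few neural tissues in which basal cells keep dividing through life to replace sensory neurons, whereas Cdkn2a is widely used as a marker of aged tissue and of senescent cells, which have left the cycle for good.

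The probes are 60 bases long, and their first 30 bases, as the scanner files give them, are printed below for the neighbouring Cdkn2a and Cdkn2b and for the genes that were read by more than 1 probe, so that the probes of a gene can be set beside each other. Probes of 1 gene are numbered from 5' to 3' along the gene.
Cdkn2a: cgacgtcgtgcggtatttgcggtatctact
Cdkn2b: gtagacttagctgaagagcagggccaccgt
Cdkn1a probe 1: tcagtgtgtcttaattattatttgtgtttt
Cdkn1a probe 2: ccctgtttctgtaacaccctgagctggact
Cdkn1b probe 1: aagaataattccttgtttattagatacatc
Cdkn1b probe 2: gtgaaatggatactacacctttaaacagtg
Cdkn1c probe 1: ccagcctctctcggggattccaggacgtcc
Cdkn1c probe 2: agaactgcgcaggagaacaaggcgtcgaac
Cdkn1c probe 3: aatggttgttgagtaaaagcccccacacat
Cdkn1c probe 4: ctgtgcaatgtattgagaacactctgtacc
Ccnd1 probe 1: ctttgttggttgtttttccttaatctttct
Ccnd1 probe 2: catataatctgttaggttctagtgttctgt
Ccne1 probe 1: tacatggcatcacaacagaatatcataaaa
Ccne1 probe 2: catgaactcttgttttgtaagtgctgctac

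On build rn3, which the scanner files name, the Cdkn2a probe lies at chr5:108916026-108916085 and the Cdkn2b probe at chr5:108946651-108946710, with 30.56 kb between them and both on the minus strand. The Cdkn2a gene makes an Ink4 inhibitor and, from another first exon and reading frame, the p53 regulator Arf, and whether the probe reads one or both of these transcripts was not analysed here. Both Cdkn1a probes lie on chromosome 20 (chr20:7385733-7385792 and chr20:7386823-7386882) and both Cdkn1b probes on chromosome 4 (chr4:172090371-172090430 and chr4:172091286-172091345). The Cdkn1c probes lie within chromosome 1 on the minus strand, at chr1:203990145-203990204, chr1:203989517-203989576, chr1:203988794-203988853 and chr1:203988641-203988666, and the Ccnd1 probes at chr1:205513299-205513359 and chr1:205511035-205511094. The place given for Cdkn1c probe 4 spans only 26 bases, although the probe is 60 bases long. The Ccne1 probes lie at chr1:90648753-90648812 and chr1:90646308-90646367. The transcript records given for both Ccne1 probes had no match in RefSeq GRCr8, whereas those of the other 15 probes did. The files place the Ccnd3 probe on chromosome 8 (chr8:77092615-77092669), whereas RefSeq has this gene on chromosome 9 in its GRCr8 assembly, so the identity of that probe is uncertain. Exons and untranslated regions were not assigned to the probes because no annotation of rn3 was used here.

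All levels below are log2 values of the background-subtracted intensity of a probe divided by the median of its array, and a log2 change is a difference between group means of these levels. The newborn value is the mean of the 4 litter means, and its SD is that of the litter means. The p-values and intervals rest on the spread of rats within groups and leave out that between litters. Levels are compared between groups for 1 probe and not between probes, except that levels of markers are summed within a list. Such sums weigh bright probes most. Statements that groups do not overlap are given as a description, since the share of all transcripts without overlap was not counted. Raw array medians were 37.2 to 87.8 in newborn and old arrays and 82.4 to 164 in adult arrays, and 24484 to 28361 probes were above background on an array. A total of 15 member probes were above background on all 35 arrays and belonged to the 23668 transcripts that all groups expressed in common, on which the tests were run. The exceptions were Cdkn1a probe 1, above background on 0 of 35 arrays, and Ccne1 probe 1, above background on 19 of 19 newborn arrays, 7 of 8 adult arrays and 2 of 8 old arrays. Adult arrays were scanned on days of their own with an earlier software release (9.5.1.1 against 9.5.3.1), so that these and adult age cannot be told apart, whereas L1 and the old rats were scanned on the same day. Since the tissue is a mixture, fewer cells of a type and less RNA per cell cannot be told apart either.

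**Figure D1:**
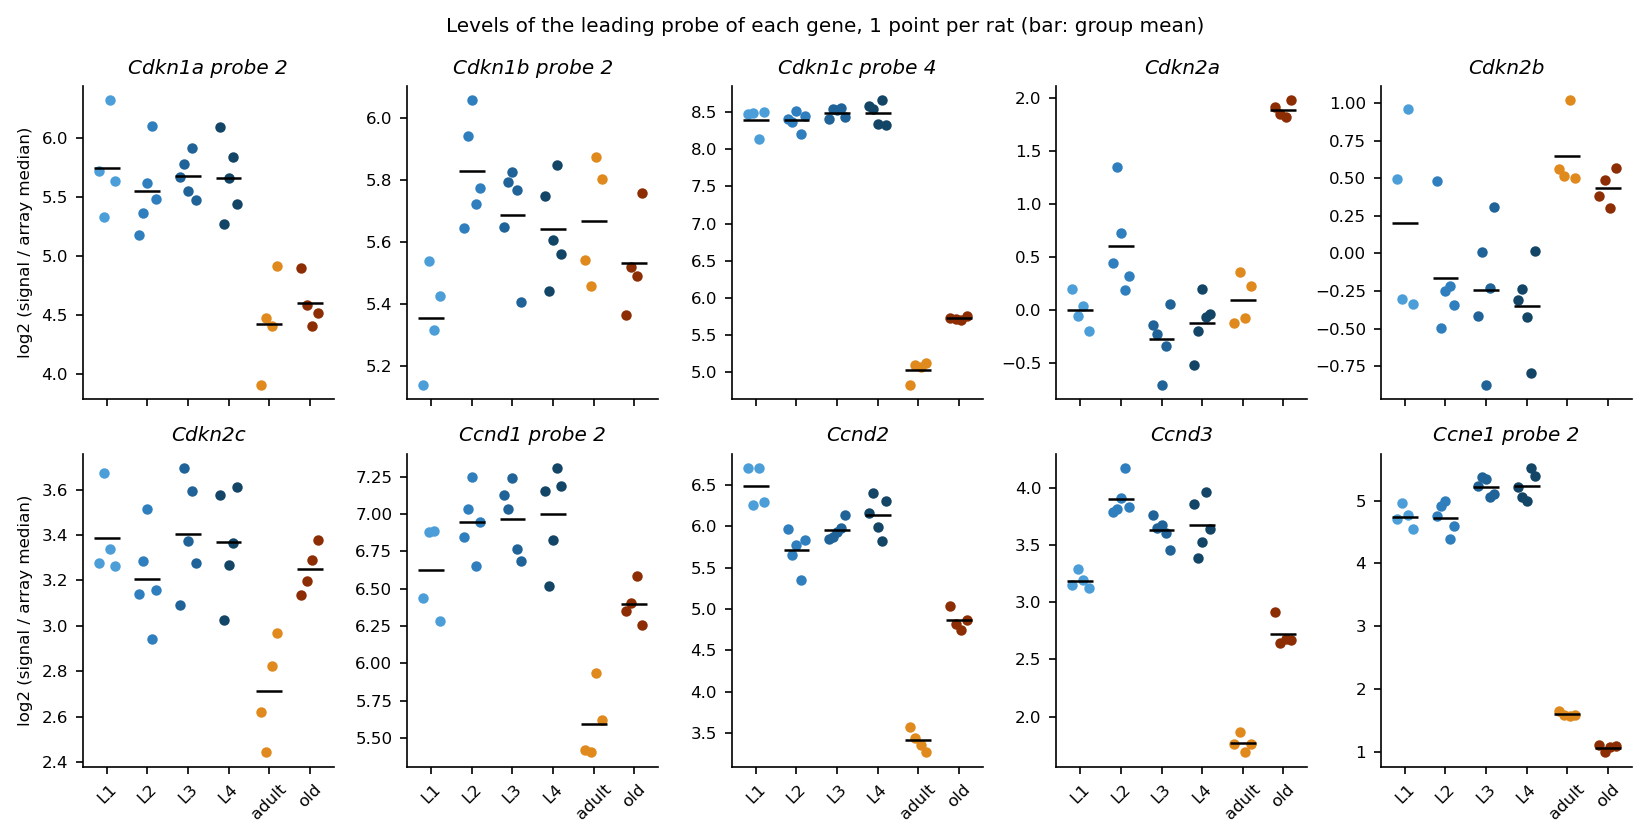
Level of the leading probe (the brightest on average) of each gene on the log2 scale, relative to the array median, with 1 point per rat and a bar at the mean of each of the 6 groups. Cdkn2a was higher in the 4 old rats (1.82 to 1.98) than in any of the other 23 rats. In contrast, Cdkn1a, Cdkn1c, Ccnd2, Ccnd3 and Ccne1 were higher in every pup than in every adult or old rat. The share of all transcripts that separate in these ways was not counted.

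Most members had higher levels in pups than in adult rats. Of the 15 tested probes, 12 from 8 genes were higher in pups and 1 (Cdkn2b) was lower, at an adjusted p under 0.01 in limma, where 40.1% of all transcripts tested were called higher and 26.1% lower. Against old rats, 11 probes of 7 genes were higher in newborn rats and 1 (Cdkn2a) was lower, where 28.3% and 31.5% of all transcripts were called. Between adult and old rats the order was mostly the other way, with 8 probes of 6 genes lower in adult rats and 1 (Ccne1 probe 2) higher, against 32.0% and 15.5% of all transcripts. The median change of the 15 probes was 1.29 in the first of these comparisons, 1.06 in the second and -0.54 between adult and old rats, and that of all transcripts was 0.16, -0.03 and -0.19.

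These medians of all transcripts moved with the scaling. With quantile normalization they were -0.01, -0.05 and -0.04, and the share of calls that were higher fell from 60.6% to 48.6% for newborn against adult rats and rose from 32.6% to 48.0% for adult against old rats. Relative to the median of all transcripts, the 12 probes higher in newborn than in adult rats were higher by 0.42 to 3.39, and the 8 probes lower in adult than in old rats differed by -0.34 to -1.61. In the comparison that shares a scan day, litter L1 against old rats, 9 probes of 6 genes were higher in L1 and 1 (Cdkn2a) was lower, and 16.9% and 29.5% of all transcripts were called in these directions. Ccnd1 probe 1 was the least stable of these calls (0.60, adjusted p = 5.38e-03) and was lost in 7 of 13 alternatives, namely with no filter on dim probes and without L1 rat 10 or 11 or any single old rat (adjusted p up to 0.0181).

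**Figure D2:**
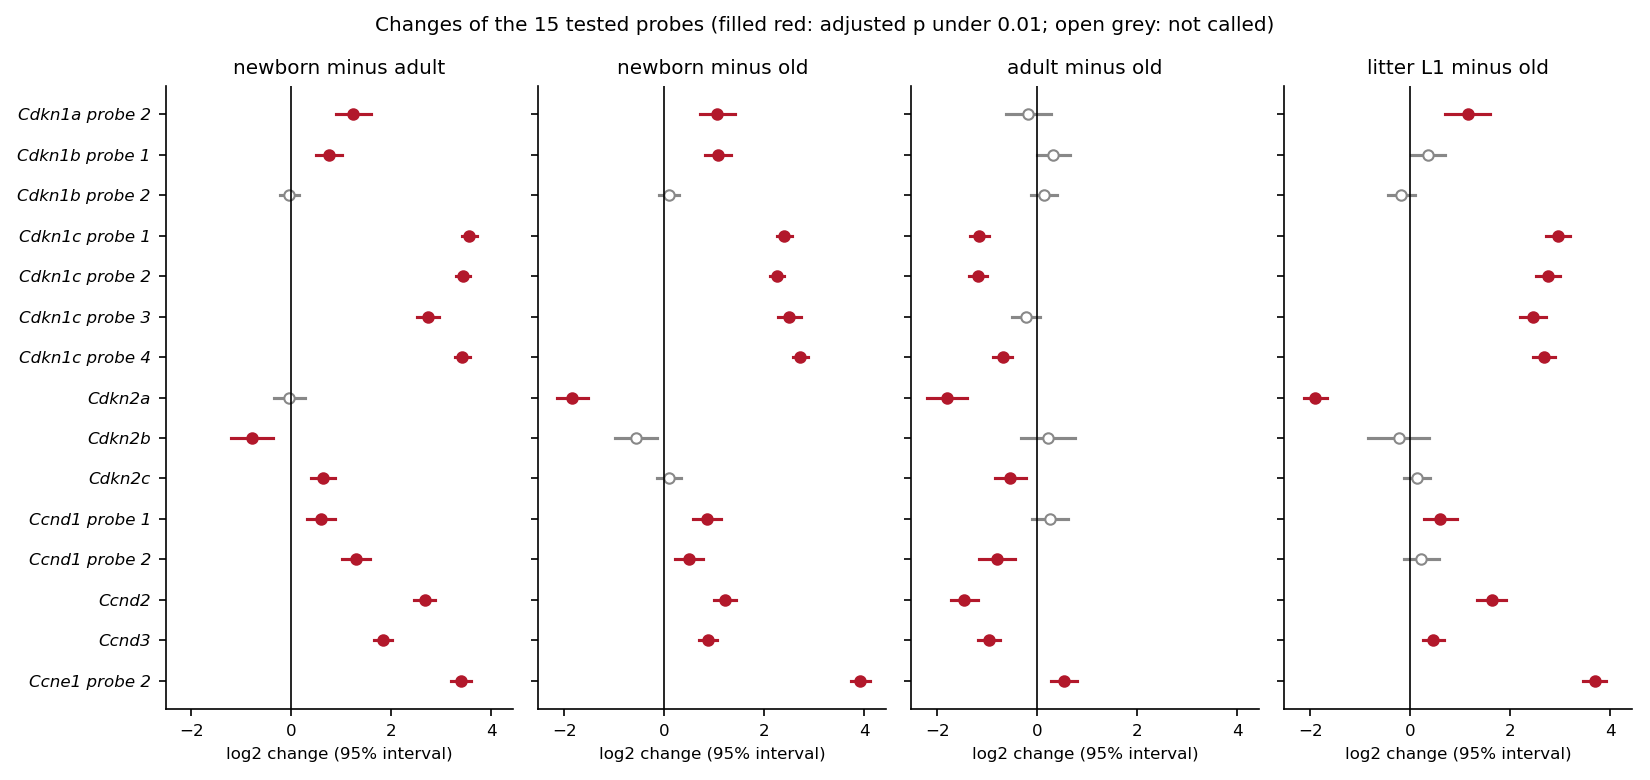
Log2 change of each of the 15 tested probes with its 95% interval in the 3 age comparisons and in litter L1 against old rats. Filled red points passed an adjusted p of 0.01 and open grey points did not. Cdkn1c and Ccne1 lie far to the right in the comparisons of newborn rats, and Cdkn2a lies to the left wherever old rats are the second group.

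Cdkn2a, which encodes the Ink4 inhibitor of CDK4 and CDK6 that marks aged tissue, was the one member with its highest level in old rats. The 4 old rats had levels of 1.91, 1.85, 1.82 and 1.98, and the 4 adult rats had -0.13, 0.35, -0.08 and 0.22. The 19 pups ran from -0.71 to 1.35 with a median of -0.04. No pup and no adult rat reached the old rats, whose 2 nostrils differed by at most 0.10. Group means were 0.05 ± 0.39 (SD, n = 4 litters) in newborn rats, 0.09 ± 0.23 (SD, n = 4) in adult rats and 1.89 ± 0.07 (SD, n = 4) in old rats. Old rats thus exceeded adult rats 3.48-fold (log2 change of adult minus old -1.80 ± 0.19 SE, adjusted p = 3.60e-08) and newborn rats 3.59-fold (-1.84, adjusted p = 1.40e-10). Within the shared scan day the difference from litter L1 was 3.73-fold (-1.90, adjusted p = 1.19e-06). Newborn and adult rats differed by -0.04 with a 95% interval of -0.36 to 0.27 (adjusted p = 0.804). Over all alternative processings and each rat left out, the change of adult minus old stayed between -1.89 and -1.23 and passed the threshold each time. The smallest change was with normexp background correction, which gave -1.15 against newborn rats and -1.16 against L1.

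Among the litters, Cdkn2a was highest in L2. Its 5 pups had 0.45, 1.35, 0.72, 0.19 and 0.32, whereas L3 had -0.14, -0.23, -0.71, -0.35 and 0.05. The level of L2 exceeded that of L3 by 0.88 and that of L4 by 0.73 (F test over L2, L3 and L4, adjusted p = 1.38e-03). Most pups of a litter shared a slide that held no other litter, and with the slide as a random block this call was lost (adjusted p = 0.0228). The highest L2 pup, at 1.35, still lay below the lowest old rat.

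The neighbouring Cdkn2b, which encodes a second Ink4 inhibitor that responds to TGF-beta, did not share this pattern. Its levels were 0.38, 0.49, 0.30 and 0.57 in old rats and 0.56, 0.52, 1.02 and 0.50 in adult rats, and the pups ran from -0.88 to 0.96 with a median of -0.25. The pups overlapped with both older groups. Newborn rats were lower than adult rats by 0.79 on the log2 scale, that is 1.73-fold (log2 change -0.79, adjusted p = 1.20e-03). This call was lost in 2 of 42 alternatives (adjusted p up to 0.0199), among them that without adult rat 15 (adjusted p = 0.0119). Over the alternatives the change ran from -0.92 to -0.28. Newborn rats were lower than old rats by a log2 change of -0.57 that missed the threshold (95% interval -0.99 to -0.15, adjusted p = 0.0151). It passed the threshold in 8 of 42 alternatives (adjusted p as low as 2.74e-04). Adult and old rats differed by 0.22 with an interval of -0.32 to 0.75 (adjusted p = 0.491).

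Cdkn2c, which encodes the Ink4 inhibitor p18 expressed in dividing progenitors of many tissues, was lowest in adult rats. Levels were 2.62, 2.44, 2.82 and 2.97 in adult rats and 3.14, 3.20, 3.29 and 3.38 in old rats, and they ran from 2.94 to 3.70 in pups. The adult rats lay below every old rat, and all pups but the lowest lay above them. The change was 0.63 for newborn against adult rats (adjusted p = 2.94e-05) and -0.54 for adult against old rats (adjusted p = 3.23e-03), and the latter was lost without adult rat 13 (0.0109), adult rat 14 (0.0181) or old rat 20 (0.0122), with normexp background correction (0.0133) and in the methods' t-test (0.0266), these being adjusted p. In the methods' t-test the former was lost too (adjusted p = 0.0117). Newborn and old rats differed by 0.09 (95% interval -0.15 to 0.33).

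Cdkn1c, an imprinted Cip/Kip inhibitor of embryonic growth that is expressed where cells leave the cycle, was the inhibitor with the largest difference between pups and older rats. Its leading probe, number 4, ran from 8.14 to 8.66 in the 19 pups with a median of 8.47. It stood at 4.83, 5.10, 5.07 and 5.12 in adult rats and at 5.73, 5.71, 5.70 and 5.76 in old rats. The 3 ages did not overlap, and adult rats were lowest. Newborn rats exceeded adult rats 10.7-fold (log2 change 3.41, 95% interval 3.26 to 3.56, adjusted p = 1.91e-21) and old rats 6.59-fold (2.72, adjusted p = 2.36e-19). Adult rats were below old rats by a log2 change of -0.69 (adjusted p = 8.93e-07).

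The other 3 Cdkn1c probes gave the same order between newborn and older rats. Their log2 changes were 3.55, 3.44 and 2.73 for newborn against adult rats and 2.39, 2.25 and 2.50 for newborn against old rats, and probe 3 gave 2.12 against adult rats with normexp background correction. They parted in the comparison of adult and old rats, where probes 1 and 2 gave -1.16 and -1.18 (adjusted p = 3.85e-10 and 8.75e-11) and probe 3 gave -0.23 (95% interval -0.51 to 0.06, adjusted p = 0.167), the latter turning to 0.07 with quantile normalization. They also parted in litter L1, which exceeded the mean of L2, L3 and L4 by 0.74 and 0.67 with probes 1 and 2 and differed from it by -0.05 and -0.06 with probes 3 and 4. Probes 1 and 2 come from another RefSeq transcript record than probes 3 and 4.

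Cdkn1a, the Cip/Kip inhibitor that p53 induces and that halts cells after DNA damage or at differentiation, was higher in pups as well. Its probe 2 ran from 5.17 to 6.32 in pups with a median of 5.63, and stood at 3.91, 4.47, 4.40 and 4.91 in adult rats and 4.90, 4.59, 4.40 and 4.51 in old rats. Every pup lay above every older rat, whereas adult and old rats overlapped. Newborn rats exceeded adult rats 2.35-fold (log2 change 1.23, adjusted p = 5.16e-07) and old rats 2.08-fold (1.06, adjusted p = 6.50e-06), and the former just missed the threshold in the methods' t-test (adjusted p = 0.0108). Adult and old rats differed by -0.18 with an interval of -0.63 to 0.27 (adjusted p = 0.502), a value that turned to 0.06 with quantile normalization. Probe 1 of Cdkn1a, at 28.3% G and C the poorest in these bases among the 17, was not well above background on any array.

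The probes of Cdkn1b, the Cip/Kip inhibitor p27 that holds resting and differentiated cells out of the cycle, disagreed. Probe 2, read from 10 spots on each array, ran from 5.14 to 6.06 in pups, from 5.46 to 5.87 in adult rats and from 5.37 to 5.76 in old rats. These ranges overlapped throughout. The log2 change was -0.04 for newborn against adult rats (95% interval -0.24 to 0.16) and 0.09 for newborn against old rats (-0.10 to 0.29), although quantile normalization turned the former into a call of -0.40 (adjusted p = 8.53e-06). Over all alternatives the former ran from -0.47 to 0.03. Adult minus old rats was 0.14 (adjusted p = 0.353 in limma). It ran from 0.07 to 0.54 over the alternatives, with an adjusted p as low as 7.99e-06, so that both results depended on the processing. Probe 1, read from 1 spot, was higher in newborn rats by 0.75 (adjusted p = 8.33e-06) and 1.07 (adjusted p = 5.51e-08) and had litter means from 3.32 in L1 to 4.79 in L2. The call against adult rats was lost with the 4 litter means as replicates (adjusted p = 0.0151).

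**Figure D3:**
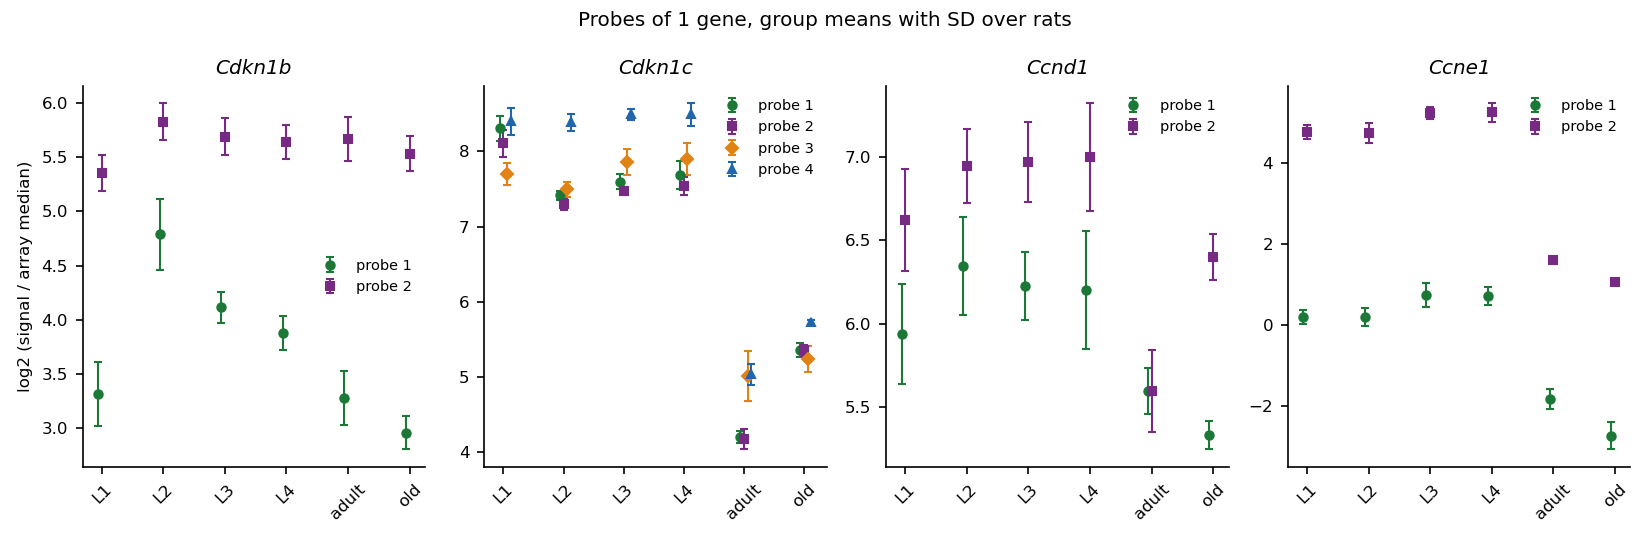
Group means of the probes of Cdkn1b, Cdkn1c, Ccnd1 and Ccne1 on the log2 scale relative to the array median, with the SD over the rats of a group. Both Ccne1 probes and all Cdkn1c probes are lower in older rats than in litters (Ccne1 probe 1 was above background on 2 of 8 old arrays), whereas Cdkn1b probe 1 varies more between litters than probe 2 (SD of the litter means 0.61 against 0.20), and the Ccnd1 probes part in old rats.

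Ccne1, whose product cyclin E activates CDK2 at the entry into S phase, showed the largest difference between pups and old rats among the members. Its probe 2 ran from 4.39 to 5.53 in pups with a median of 5.00, and stood at 1.65, 1.58, 1.57 and 1.57 in adult rats and at 1.11, 0.99, 1.06 and 1.09 in old rats. The ages were fully apart, with spreads within the older groups of 0.04 and 0.05 (SD, n = 4 each). Newborn rats exceeded adult rats 10.5-fold (log2 change 3.39, adjusted p = 5.60e-19) and old rats 15.2-fold (3.92, adjusted p = 4.88e-20), and L1 exceeded the old rats of its scan day 12.9-fold (3.69, adjusted p = 7.66e-08). With normexp background correction the changes against old rats were smaller, at 3.17 for newborn rats and 3.07 for L1. Ccne1 was also the one member called higher in adult than in old rats (0.53, adjusted p = 6.39e-04), a call that was lost with normexp background correction (0.25, adjusted p = 0.0382). Litter L2 was below L3 and L4 by log2 changes of -0.49 and -0.51 (F test, adjusted p = 1.76e-03).

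Probe 1 of Ccne1 was above background on few old arrays (2 of 8) and was examined without the filter on dim probes. It had a mean of 0.46 ± 0.30 (SD, n = 4 litters) in newborn rats and -1.83 ± 0.24 (SD, n = 4) in adult rats, and its old level is not given as a measured value. The unfiltered fit gave a log2 change of 2.29 for newborn against adult rats (adjusted p = 2.40e-12). Permuting 4 litter means and 4 adult rats exactly (two-sided) gave p = 0.0286, the smallest that this design allows.

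Ccnd2, the D-type cyclin that is often found in neural progenitors, fell from pups to adult rats and stood between them in old rats. Its levels ran from 5.35 to 6.71 in pups with a median of 5.98, and were 3.57, 3.45, 3.36 and 3.27 in adult rats and 5.03, 4.82, 4.75 and 4.87 in old rats. No 2 of the ages overlapped. Newborn rats exceeded adult rats 6.34-fold (log2 change 2.66, adjusted p = 1.46e-16) and old rats 2.31-fold (1.21, adjusted p = 3.59e-10), and adult rats were below old rats by a log2 change of -1.46 (adjusted p = 3.27e-09).

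Ccnd3, the D-type cyclin common in differentiating and lymphoid cells, followed the same order by its probe of uncertain place. Levels were 1.76, 1.86, 1.69 and 1.76 in adult rats, 2.92, 2.64, 2.68 and 2.67 in old rats and 3.12 to 4.17 in pups, again without overlap. Changes were 1.83 for newborn against adult rats (adjusted p = 1.82e-15), 0.87 for newborn against old rats (1.98e-09) and -0.96 for adult against old rats (6.30e-08), the values in brackets being adjusted p. The first of these fell to 1.14 with normexp background correction. The difference between L1 and old rats was smaller, at 0.46 (adjusted p = 1.92e-03).

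Ccnd1, the D-type cyclin that growth factors induce, was higher in pups by both probes. Probe 2 ran from 6.28 to 7.31 in pups and stood at 5.42, 5.40, 5.93 and 5.62 in adult rats and 6.35, 6.40, 6.58 and 6.25 in old rats, so that old rats reached into the range of pups and adult rats did not. Newborn rats exceeded adult rats 2.44-fold (1.29, adjusted p = 6.92e-09) and old rats 1.40-fold (0.49, adjusted p = 2.86e-03), the latter lost without old rat 17 (adjusted p = 0.0114) or old rat 20 (adjusted p = 0.0170). Probe 1 gave 0.58 and 0.84 (adjusted p = 4.74e-04 and 6.75e-06), and the former was lost with quantile normalization (0.21, adjusted p = 0.115). Adult minus old rats was -0.80 with probe 2 (adjusted p = 3.79e-04) and 0.26 with probe 1 (95% interval -0.10 to 0.62, adjusted p = 0.201). With quantile normalization the call of probe 2 was lost (-0.42, adjusted p = 0.0204) and that of probe 1 was made in the other direction (0.60, adjusted p = 2.20e-03), so that Ccnd1 gave no common direction between adult and old rats.

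Between litters, whose ages within the range of 3 to 5 days are not given one by one, 3 of the 15 probes (Cdkn1b probe 1, Cdkn2a and Ccne1 probe 2) differed among L2, L3 and L4, where 10.9% of all transcripts did, and with the slide as a random block only the call of Ccne1 probe 2 was kept. Litter L1 differed from the other litters at 6 of 15 probes, where 33.1% of all transcripts did. L1 was scanned with the old rats on another day than the other litters, so that litter and scan day cannot be told apart in that count.

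The genes on which the members act were examined by lists. For newborn against adult rats, 40.1% of all transcripts were called higher and 26.1% lower. For newborn against old rats these shares were 28.3% and 31.5%. They were 15.5% and 32.0% for adult against old rats, and 16.9% and 29.5% for litter L1 against old rats. Of 21 genes of proliferating cells, 20 were tested, and pups had 19 of them higher than adult rats and 19 higher than old rats, with 0 lower. The median change was 2.25 and 2.96, and 19 were also higher in litter L1 than in the old rats of the same scan day. Cdk1, the kinase of mitosis, was higher in newborn than in adult rats by 2.97 and than in old rats by 3.68, Cdc20, an activator of the anaphase-promoting complex, was higher by 2.79 in the former comparison, and Birc5, a protein of the mitotic spindle, was higher by 3.58 in the latter. In adult rats 10 of the 20 were higher than in old rats, led by Rrm2 (1.23), which makes deoxynucleotides, and the proliferation marker Mki67 (1.04), with 0 lower.

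Of 22 CDK, Rb and E2F partners, 14 had a probe of that name and 11 were tested. In newborn rats 8 were higher than in adult rats and 2 lower, and 6 were higher than in old rats and 2 lower. The E2F factors E2f8 and E2f1 led both, by 2.83 and 1.87 against adult rats and 4.12 and 2.66 against old rats. Rb1, the retinoblastoma gene, was lower in newborn rats by log2 changes of -0.48 and -0.55, E2f5, a repressive E2F, by -0.81 against adult rats, and Rbl2, a relative of Rb1 typical of resting cells, by -0.25 against old rats. Against adult rats, however, Rbl2 was higher in newborn rats by 0.25 (adjusted p = 4.44e-03 in limma). Adult rats had 5 genes higher than old rats, led by E2f8 (1.29) and E2f1 (0.79), and 1 lower, Rbl2 (-0.51). The kinase genes of the members' complexes, Cdk2, Cdk4 and Cdk6, were named after their values were seen. They were higher in newborn than in old rats by 1.07, 0.84 and 0.51.

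**Figure D4:**
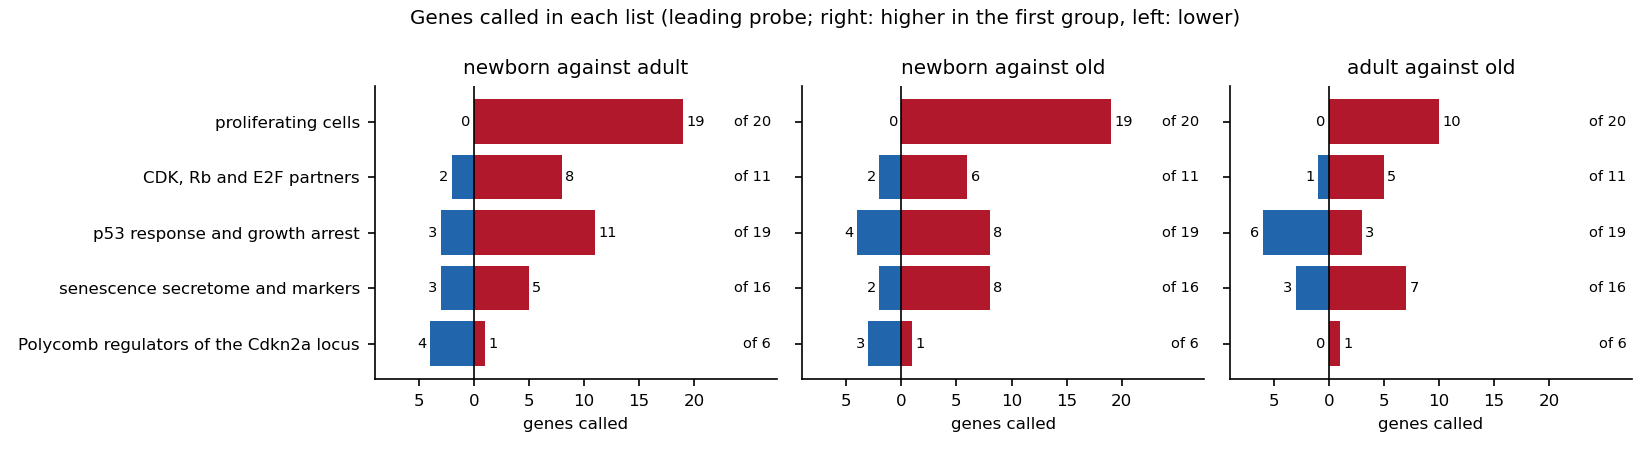
Number of genes called (adjusted p under 0.01) in each of 5 lists in the 3 age comparisons, with bars to the right for genes higher in the first group and to the left for genes lower in it, and the number tested at the right edge. Of the 20 genes of proliferating cells, 19 were higher in newborn rats in both comparisons, whereas the other lists moved in both directions in comparisons of newborn rats.

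Genes of the p53 response and of growth arrest, the pathway that drives Cdkn1a, moved both ways. Of 19 tested, 11 were higher and 3 lower in newborn than in adult rats, 8 higher and 4 lower than in old rats, and 3 were higher and 6 lower in adult than in old rats. Between adult and old rats these counts were near the shares of all transcripts (15.5% higher and 32.0% lower). The median change of the list there was -0.20, and that of all transcripts was -0.19. The stress genes Gadd45g (2.07) and Gadd45b (2.0) were the most raised in newborn against adult rats, and Sesn3 (-0.64), a sestrin, and Mdm2 (-0.56), the p53 antagonist, the most reduced. Against old rats, Gadd45g (1.22) and the kinase gene Plk3 (1.19) were higher, and the p53 target Phlda3 (-0.57) and Foxo3 (-0.48), a factor of stress resistance, were lower. Mdm2 (0.91) and Sesn3 (0.54) were higher and Gadd45b (-1.59) and Phlda3 (-1.07) lower in adult than in old rats.

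Of 22 genes of the senescence secretome and senescence markers, 16 were tested, and they moved in both directions. Against old rats, 8 were higher and 2 lower in newborn rats, and 7 were higher and 3 lower in adult rats, with a median change of 0.95 and 0.34. Of all transcripts, 28.3% and 31.5% were called in the former comparison and 15.5% and 32.0% in the latter. Lmnb1, whose loss is the marker, was among the higher genes, so that the counts and medians mix both directions of senescence. The genes lower in newborn than in old rats were Mmp12 (-2.44), a macrophage elastase, and Gdf15 (-1.26), a stress cytokine, and those most raised were Igfbp3 (2.94), which binds insulin-like growth factors, and the collagenase gene Mmp13 (2.11). In adult against old rats, Cxcl2 (-3.98) and Il1b (-2.94), a chemokine and a cytokine, were the most reduced, and Spp1 (2.68) and Mmp13 (2.43) the most raised. Cxcl2 and Il1b had wide errors (SE 1.26 and 0.92) and passed the threshold narrowly (adjusted p = 9.06e-03 and 8.70e-03 in limma). Spp1 and Mmp13 are also products of bone and cartilage cells. Against adult rats, 5 were higher in newborn rats, led by Igfbp3 (3.48) and Timp1 (0.94), a protease inhibitor, and 3 lower, led by Mmp12 (-2.41) and Igfbp5 (-1.37). Lmnb1, a lamin gene whose loss is used as a senescence marker, was named after its values were seen: it was higher in newborn than in old rats by 2.10 and in adult than in old rats by 1.39.

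Polycomb proteins are known to silence the Cdkn2a locus. Of 10 listed genes, 6 had a probe and were tested, so that Bmi1, Ezh2, Suz12 and Jarid2 gave no value under these names. In newborn rats 4 were lower and 1 higher than in adult rats, and 3 lower and 1 higher than in old rats. Cbx7 and Cbx8, which bind the repressive histone mark, were lower by log2 changes of -1.45 and -1.35 against adult rats and -1.35 and -1.71 against old rats, and Phc1 was higher by 0.82 and 0.61. The comparison of adult and old rats gave 1 call, Rnf2 (0.76 higher in adult rats), a ubiquitin ligase.

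Markers of cell types moved with age along with the members, and their part in the values above was not tested. The shares of all transcripts given for the gene lists apply to the counts of markers too. Markers of mature sensory neurons were above background in all groups and lower in newborn rats in 8 of 8 cases, with summed levels of 1088 to 2176 times the array median in pups, 3858 to 4835 in adult rats and 7437 to 8957 in old rats, and 3 of 8 were lower in adult than in old rats. Most of this sum came from Omp, the olfactory marker protein gene (adult minus old -1.06), and 5 of 8 markers were not called between adult and old rats. Markers of immature neurons were higher in newborn than in old rats in 7 of 9 cases and lower in 1, and those of globose basal cells, which divide, in 5 of 5. Among 8 markers of horizontal basal cells, 1 was higher in newborn than in old rats.

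Most macrophage markers had their highest mean level in old rats, as did Cdkn2a. Most markers of mature neurons shared this order, with Omp at 10.4, 11.5 and 12.6 in newborn, adult and old rats. So did most of sustentacular cells and glands, with Cyp2g1 at 7.14, 9.09 and 9.86. Most markers of horizontal basal cells also had their highest mean level in old rats, with Krt14 at 8.18, 7.52 and 8.88. However, 0 of 8 of these were called lower in adult or in newborn than in old rats. Macrophage markers were lower than in old rats in 7 of 10 cases in adult rats and in 6 of 10 in newborn rats, with 1 higher (Cd68). Their summed level was 540 to 729 in old rats, 219 to 363 in adult rats and 298 to 752 in pups. Markers of B and T cells summed to 44.6 to 56.4 in old rats, 21.8 to 38.5 in adult rats and 21.6 to 52.4 in pups, with 2 of 3 tested lower in adult and in newborn rats. Of 7 markers of sustentacular cells and glands, 3 were lower in adult and 4 in newborn than in old rats.

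Tissues outside the epithelium moved too. Bone markers were higher than in old rats in 8 of 9 cases in newborn rats and 7 of 9 in adult rats, and their summed level was 4489 to 11778 in pups, 3242 to 5454 in adult rats and 826 to 1410 in old rats. Cartilage markers were higher in newborn than in old rats in 5 of 7 cases, those of skeletal muscle in 2 of 3, and those of red cells in 4 of 5. Red cell markers were lowest in adult rats, like Cdkn1c, Ccnd2 and Ccnd3 and like the mean levels of the horizontal basal cell markers. Of the red cell markers, 3 of 5 were lower in adult than in old rats (Hba1 by -2.06 and Alas2 by -2.05). Their summed level was 1918 to 3622 in adult rats, 7926 to 12637 in old rats and 9377 to 14828 in pups. Of 7 markers of vessels, glia and ciliated cells, 1 was higher and 1 lower in newborn than in old rats. In the marker lists, 3 genes were above background on no array, 1 of sustentacular cells and glands and 2 of vessels, glia and ciliated cells. Summed muscle markers spanned 28.4 to 736 in pups against 6.20 to 8.28 in old rats.

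Levels most like those of each leading probe over the 27 rats were sought among 9376 probes of named genes. Pearson correlations are given as a description, since the 27 rats fall into age groups and litters and share the array scaling. Ccne1 was most like Cdkn3 (r = 0.99), a phosphatase gene of the cell cycle, and Kifc1 (0.99), a kinesin gene of the mitotic spindle. Cdkn1c was most like Gpc3 (0.99), a proteoglycan gene that restrains embryonic growth, and Nipsnap3a (0.98). Cdkn2a was most like Cst3 (0.92), which encodes the protease inhibitor cystatin C, and Pcsk2 (0.90), a prohormone convertase gene.

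The cyclins paired with Thumpd2 and Hist1h2an for Ccnd2 (0.98 and 0.97), with the ribosomal protein gene Rpl26 and Ube2a for Ccnd3 (both 0.98) and with Rpl27 and Ptbp1 for Ccnd1 (both 0.95). Cdkn1a was most like Ptpn14 (0.96) and the serum response factor gene Srf (0.93), and Cdkn2c like Shmt1 and Gspt1 (0.91 and 0.90). The lowest of these values belonged to Cdkn1b, with the clock gene Cry1 and Bet1 (0.89 and 0.87) by its probe 2, and Cdkn2b, with Bcar3 and Dock9 (0.86 and 0.83).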

How the data were processed

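RNA of the olfactory epithelium was hybridised by the authors to one-colour whole-genome rat arrays (Cy3, Agilent), 1 array for each pup and 2 for each adult and old rat. The deposited scanner files hold, per the file headers, background-subtracted intensity values of each spot from Feature Extraction 9.5. The deposited value table of GeneSpring GX ratio values served as an alternative. Spots of a probe were averaged without population outliers, divided by the array median, floored at 0.01 and set on the log2 scale. Both arrays of a rat were averaged. Groups came from the labels. limma 3.58.1 (R 4.3.3) was fitted to 6 groups over 23668 transcripts above background in at least 3 arrays of each litter and 6 of 8 adult and old arrays, with Benjamini-Hochberg adjustment and a threshold of 0.01. On simulated data for newborn against adult rats (23668 genes), changes of log2 1 were recovered in 83.0% of cases. Named are all member probes, the 2 largest called changes per direction and list, and the 2 probes most correlated with each leading probe. Members and lists were chosen with earlier results of these data known. Replicates are separate rats, and the pups come from 4 litters, whose differences the p-values and intervals of newborn rats leave out. With 4 litter means and 4 adult rats permuted exactly (two-sided), the smallest possible p is 0.0286, and Cdkn1b probe 1 gave 0.114. The number of arrays limits the precision. Alternatives were other scalings, background correction, filters, blocks, litter means, the methods' t-test and each rat left out.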

Additional observations from a re-analysis of the deposited data

Results flagged for a closer look

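Of 90 groups of rats examined over the member probes, 8 held a rat that stood apart from the rest of its group, where chance gives about 1 in 20 groups. Cdkn1b probe 1 was low in L2 rat 24 (4.23, against 4.82 to 5.04 in its littermates) and in adult rat 16 (2.91, against 3.38 to 3.43). Cdkn1c probe 4 was low in L1 rat 11 (8.14, against 8.47 to 8.51) and in adult rat 13 (4.83, against 5.07 to 5.12). Cdkn2b was high in L2 rat 21 (0.49, against -0.49 to -0.22) and in adult rat 15 (1.02, against 0.50 to 0.56). Without that rat the change of newborn minus adult rats in Cdkn2b was -0.67 (adjusted p = 0.0119). Ccnd1 probe 1 was high in adult rat 15 (5.80, against 5.52 to 5.54), and Ccnd3 was high in old rat 17 (2.92, against 2.64 to 2.68).

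Litter L1 differed from the mean of L2, L3 and L4 in limma at 6 of 15 probes, where 33.1% of all transcripts did, a share near that of the members. Values of adjusted p are in brackets. L1 was higher with Cdkn1c probe 1 by 0.74 (1.96e-08), Cdkn1c probe 2 by 0.67 (3.19e-08) and Ccnd2 by 0.56 (1.68e-04). It was lower with Cdkn1b probe 1 (-0.94, 1.79e-06), Ccnd3 (-0.55, 1.36e-05) and Cdkn1b probe 2 (-0.37, 3.66e-03). Litter and scan day cannot be told apart in these differences.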

How the results depend on the processing

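Of 2670 results for single probes under an alternative, 2621 kept direction and side of the threshold, 26 lost and 14 gained a call, and 9 turned direction, none of them called. Those were Cdkn1b probe 2 in newborn against adult rats without adult rat 15 or 16 (-0.11 to 0.027 over the rats left out), Cdkn2a there with normexp (0.0786) or without adult rat 14 (-0.12 to 0.044 over the rats left out), and in adult against old rats Cdkn1a probe 2 (0.0645 with quantile normalization, 0.0448 with normexp), Cdkn1c probe 3 (0.07 and 0.27) and Cdkn2b (-0.0199 with normexp). The cause was not tested.

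The 1 probe higher in adult than in old rats became 0 with a 2-fold minimum, 3 with quantile normalization and 2 with normexp or with no filter, and the 8 lower became 4 with the 2-fold minimum. The 1 probe lower in newborn than in adult rats became 0 with the 2-fold minimum and 2 with quantile normalization, and ranged from 0 to 1 with each rat left out. The 1 probe lower in newborn than in old rats became 2 with the 75th percentile, arrays taken as samples, a block for the rat, litter means and the methods' t-test, and ranged from 1 to 2 with each rat left out. The 3 probes that differed among L2 to L4 became 0 with the 2-fold minimum and 1 with the slide as a block. Ccne1 probe 1 in adult against old rats was 0.15 with normexp and is no measured difference, since few old arrays were above background.

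Slide as a block for L1 against old rats was not run, since they share no slide. No paired analysis was possible because the groups share no rat numbers. Dim probes, such as Ccne1 probe 1 in old rats, are limited by signal over background.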
